A study of Homo sapiens with 22 samples.

Results

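Immediate early genes are switched on within minutes of a growth factor or stress signal, and their mRNAs are known for being degraded quickly, so that the response is brief. FOS and JUN family proteins pair to form the transcription factor AP-1, and MYC pairs with MAX to drive growth genes. Many of these mRNAs carry AU-rich elements in the 3′ UTR, which are bound by proteins that recruit deadenylases. The 10 genes examined here were FOS, FOSB, JUN, JUNB, JUND, EGR1, IER2, IER5, MYC and DUSP1. They were chosen by gene symbol, out of 59732 genes to which the transcripts of the count files could be assigned. Each gene was represented by its protein-coding transcript with the highest mean count.

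The measurement was BRIC-Seq in HEK293T cells, a human embryonic kidney line, which carried a short hairpin RNA that was either a control (shControl) or directed at ZNF598 (shZNF598), the ubiquitin ligase that acts on collided ribosomes. All cells were given 150 μM bromouridine (BrU) for 24 h, which enters new RNA, and were then chased without it. Labelled RNA was pulled down with an anti-BrdU antibody at 0, 2, 4, 6 and 10 h (2 libraries per shRNA and time) and at 24 h (1 library per shRNA), giving 22 libraries in 12 groups. The labels call the libraries replicates and do not say whether they were separate cultures, so p-values measure the spread between these libraries only. The comparison asked how fast each mRNA was lost and whether that changed upon ZNF598 knockdown.

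The 20 libraries of 0-10 h held 52352359 to 96963584 counts each. Levels are in CPM, the count relative to library size after TMM scaling, which holds the bulk of every library constant, and no spike-in was used here. A slope of 0 therefore means loss at the rate of the bulk, and a rise means a smaller loss than the bulk or a gain, which cannot be told apart. All levels are those of RNA recovered by the pulldown, and how much of it was unlabelled was not tested. ZNF598 itself fell from 7.63 ± 1.05 CPM in shControl to 0.902 ± 0.208 CPM in shZNF598 at 0 h (SD, n = 2; adjusted p = 2.59e-10, edgeR quasi-likelihood test). Its level in shControl and shZNF598 was 6.1 and 0.431 CPM at 4 h, and 4.72 and 0.969 CPM at 10 h. At 24 h it was 4.98 and 2.45 CPM, with 1 library each. The change of ZNF598 from 4 to 10 h was 1.52 ± 0.3 log2 units higher in shZNF598 (SE, edgeR adjusted p = 0.0453). The 2 shControl libraries of 0 h agreed less with each other than those of any other group (Pearson r across transcripts of 0.9743, against 0.9864 to 0.9946). Of the HEK293T markers, NEFL, LIN28B, CDH2 and KRT18 were at 5.64 CPM or more in every library and NEFM had a median of 1.21 CPM, whereas PAX2 reached at most 0.0977 CPM. Markers of blood, liver, fibroblasts and endothelium (PTPRC, CD3E, HBB, ALB, COL1A2, CDH5) had at most 3 counts in any library.

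AU-rich stretches were looked up first, since they are the sequence feature for which these mRNAs are best known. The pentamer ATTTA was counted on the transcript strand of the annotated 3′ UTR, overlaps included. It was found in 9 of the 10 members, and in 75% of 10654 other genes with a tested transcript and a 3′ UTR. Pentamers per kilobase were highest in FOS (6.2, 5 copies in 806 nt), the AP-1 partner of JUN, and DUSP1 (6.01, 4 copies in 666 nt), a phosphatase that switches off MAP kinases. They were followed by JUNB (4), IER5 (3.32, 10 copies in 3014 nt), MYC (3.01, 6 copies in 1993 nt) and JUN (2.34), against a median of 1.78 over the other genes, of which 28.4% had more than 3. FOSB (1.38), JUND (1.34) and EGR1 (0.818) were below that median, and IER2 had none in 1050 nt. The longer motif TTATTTATT, which contains the pentamer, was found in 3 members, with 3 copies in IER5, 2 in DUSP1 and 1 in FOS, and in 9.85% of the other genes. To show the range from dense to sparse, the 30 bases with the most pentamers are given for the members with the longer motif (IER5, DUSP1 and FOS) and for the JUN family (JUN, JUNB and JUND), 5′ to 3′ on the transcript strand, with the pentamers in capitals (sequence from GENCODE release 44, build hg38).
IER5, chr1:181092448-181092477, plus strand: ttcctttATTTATTTATTTATTTAattata
DUSP1, chr5:172768641-172768670, minus strand: ggctggtccttATTTATTTAacttcacccg
FOS, chr14:75282057-75282086, plus strand: ttgtgtttttaATTTATTTAttaagatgga
JUN, chr1:58781336-58781365, minus strand: ttccagaaaggatATTTAagaaaatacaat
JUNB, chr19:12793059-12793088, plus strand: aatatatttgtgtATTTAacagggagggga
JUND, chr19:18279998-18280027, minus strand: tcgattctgccctATTTAtgtttctactcg
The stretch in IER5 held 4 overlapping pentamers, those in DUSP1 and FOS held 2 each, and those in JUN, JUNB and JUND held 1 each. A match is a description of the letters and not evidence that a protein was bound there.

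Of the 10 members, 6 reached a mean of 1 CPM over the 0-10 h libraries and entered the test across 79513 transcripts, namely JUN, JUND, IER2, IER5, MYC and DUSP1. FOS (0.151 CPM), FOSB (0.116 CPM), JUNB (0.875 CPM) and EGR1 (0.0692 CPM) were below it, and their values come from a fit without that filter. Divided by transcript length, JUN was the most abundant at 0 h in shControl, with 28.3 ± 2.57 CPM per kilobase (SD, n = 2). It was followed by DUSP1 (4.92 ± 0.74), IER5 (3.74 ± 0.444), JUND (2.46 ± 0.0681), JUNB (1.25 ± 0.295) and MYC (1.2 ± 0.0455). IER2 (0.594 ± 0.095), FOS (0.203 ± 0.0344), FOSB (0.052 ± 0.0161) and EGR1 (0.0347 ± 0.00115) came last. Of neighbours in this order, only JUNB and MYC overlapped between libraries. In shZNF598 the order differed in that IER5 (3.35 ± 0.21) was above DUSP1 (2.64 ± 0.0262), which overlapped with JUND (2.63 ± 0.482), and MYC (1.23 ± 0.0576) was above JUNB (0.784 ± 0.077).

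**Figure D1:**
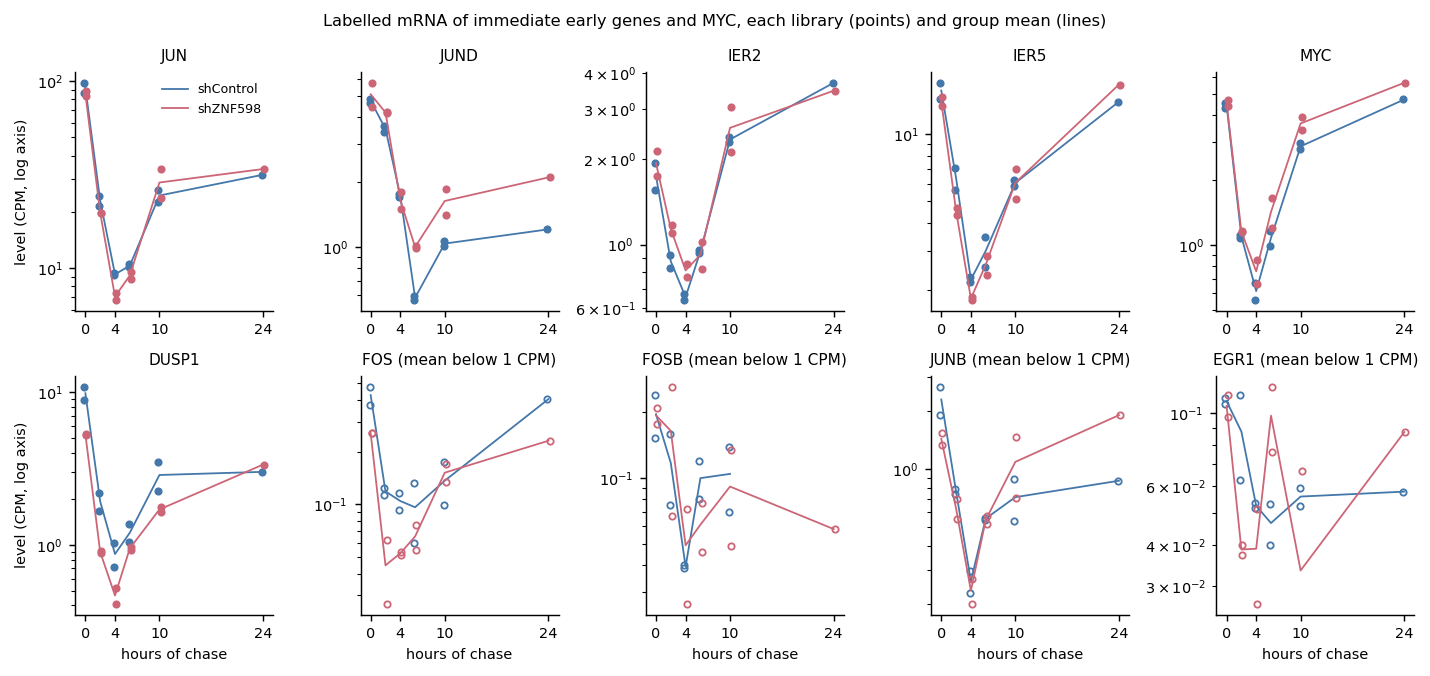
Level of the mRNA recovered by the pulldown (CPM, log axis) against hours of chase for the 10 members, in shControl (blue) and shZNF598 (red). Points are libraries, lines join group means, open points mark members with a mean below 1 CPM, and libraries at 0 counts (FOSB in shControl at 24 h, EGR1 in 1 shZNF598 library at 10 h) are not drawn. JUN, JUNB, IER2, IER5, MYC and DUSP1 were lowest at 4 h in both arms and JUND at 6 h.

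The tested members were lost much faster than the bulk during the first 4 h. JUN (ENST00000371222.4, hg38 chr1:58780791-58784047, minus strand, a gene of 1 exon), the core subunit of AP-1, had 86.3 and 98.1 CPM at 0 h in shControl, 21.6 and 24.3 CPM at 2 h, and 9.37 and 9.15 CPM at 4 h. In shZNF598 it had 88.2 and 83 CPM at 0 h, 19.8 CPM in both libraries at 2 h, and 7.31 and 6.76 CPM at 4 h. The time points did not overlap in either arm, and the mean level at 4 h was 9.96-fold below 0 h in shControl and 12.2-fold below in shZNF598.

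DUSP1 (ENST00000239223.4, chr5:172768096-172771195, minus strand, 4 exons) went from 8.84 and 10.9 CPM at 0 h in shControl to 1.66 and 2.19 CPM at 2 h and 1.02 and 0.72 CPM at 4 h. In shZNF598 it went from 5.35 and 5.28 CPM to 0.91 and 0.886 CPM, and then to 0.411 and 0.519 CPM. The level thus started lower in shZNF598, and the loss to 4 h was 11.4-fold in both arms. MYC (ENST00000621592.7, chr8:127736231-127742951, plus strand, 3 exons) had 4.34 and 4.58 CPM at 0 h in shControl, 1.12 and 1.08 CPM at 2 h, and 0.669 and 0.56 CPM at 4 h. In shZNF598 MYC had 4.73 and 4.42 CPM, 1.15 and 1.17 CPM, and 0.852 and 0.665 CPM at these times. Most of the MYC loss had occurred by 2 h (4.07-fold in shControl and 3.94-fold in shZNF598).

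IER5 (ENST00000367577.7, chr1:181088700-181092900, plus strand, 1 exon), an immediate early gene of the heat shock response, had 14.4 and 17 CPM at 0 h in shControl and 2.17 and 2.29 CPM at 4 h. In shZNF598 it had 13.4 and 14.7 CPM at 0 h and 1.86 and 1.81 CPM at 4 h. The loss was 7.04-fold and 7.67-fold, near that of MYC (7.26-fold and 6.03-fold). IER2 (ENST00000588173.1, chr19:13151975-13154908, plus strand, 1 exon), a nuclear protein induced by growth factors, lost less, from 1.55 and 1.94 CPM to 0.669 and 0.64 CPM in shControl and from 1.74 and 2.13 CPM to 0.852 and 0.772 CPM in shZNF598. JUND (ENST00000252818.5, chr19:18279694-18281622, minus strand, 1 exon), the JUN family member that is often present in resting cells, had a different time course. It had 4.65 and 4.84 CPM at 0 h in shControl, still 3.39 and 3.64 CPM at 2 h, and 1.7 and 1.76 CPM at 4 h. The fold loss of JUND by 2 h was 1.35 in shControl, against 2 to 5.15 for the other tested members, and its lowest level came at 6 h.

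The slope of the log2 level over 0-4 h was called below 0 for all 6 tested members in shControl and in shZNF598, where 21.3% and 20.5% of all transcripts were called lower (edgeR quasi-likelihood test, adjusted p below 0.05). For the members the median was −0.735 log2 per hour (shControl) and −0.706 (shZNF598), against −0.002 and 0.003 over all transcripts. In shControl the slope was −0.921 ± 0.076 (SE) for DUSP1 (adjusted p = 5.38e-07), −0.843 ± 0.04 for JUN (9.44e-09), −0.759 ± 0.072 for MYC (2.08e-06) and −0.71 ± 0.037 for IER5 (1.9e-08). Of all transcripts, 0.0214% had a lower slope than DUSP1, 0.049% than JUN, 0.116% than MYC and 0.204% than IER5. IER2 (−0.373 ± 0.05, adjusted p = 5.22e-05) and JUND (−0.367 ± 0.063, adjusted p = 0.000468) declined at a lower rate, with 3.52% and 3.63% of transcripts below them. The slopes in shZNF598 were −0.94 for DUSP1, −0.906 for JUN, −0.74 for IER5, −0.673 for MYC, −0.398 for JUND and −0.315 for IER2. The calls were the same when each library was left out in turn. Without the first or the second shControl library of 0 h, the slope in shControl was −0.929 or −0.85 for DUSP1, −0.843 or −0.801 for JUN, and −0.396 or −0.315 for IER2.

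**Figure D2:**
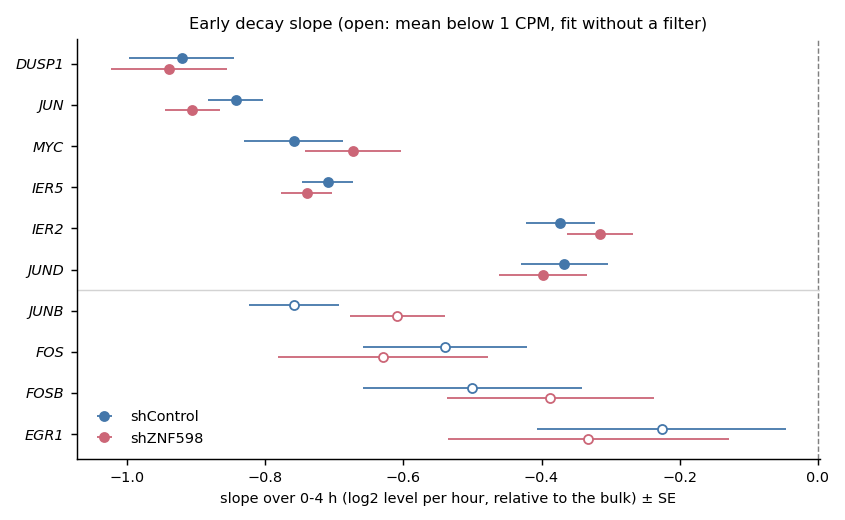
Slope of the log2 level per hour over 0-4 h (horizontal axis, relative to the bulk of the library, bars are SE) for each member in shControl (blue) and shZNF598 (red), with open points for members below a mean of 1 CPM. All values lie below 0, from −0.94 for DUSP1 to −0.226 for EGR1, and the SE bars of the arms overlap for every member except JUNB.

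Of the members below the filter, JUNB, another AP-1 subunit (ENST00000302754.6, chr19:12791486-12793315, plus strand, 1 exon), rested on the most counts, 137 and 201 at 0 h and 23 and 17 at 4 h in shControl. Its level went from 1.91 and 2.67 CPM to 0.296 and 0.227 CPM in shControl, and from 1.33 and 1.53 CPM to 0.267 and 0.2 CPM in shZNF598. The JUNB slope over 0-4 h was −0.759 ± 0.065 in shControl and −0.609 ± 0.069 in shZNF598 (edgeR without a filter, adjusted p = 1.24e-19 and 5.17e-13). FOS (ENST00000303562.9, chr14:75278828-75282230, plus strand, 4 exons) had 27 and 36 counts at 0 h and 9 and 7 counts at 4 h in shControl, and 16 and 16 followed by 5 and 4 in shZNF598. Its slope was −0.54 ± 0.119 and −0.63 ± 0.152 (adjusted p = 0.000174 and 0.000691). FOSB (ENST00000586615.5, chr19:45469913-45475179, plus strand, 3 exons) had a slope of −0.5 in shControl and −0.387 in shZNF598 (edgeR without a filter, adjusted p = 0.0119 and 0.0476), on at most 21 counts per library. EGR1 (ENST00000239938.5, chr5:138465479-138469303, plus strand, 2 exons), a zinc finger factor, had at most 11 counts in any library, and no slope of EGR1 was detectable at this depth (−0.226 and −0.332).

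Apparent half-lives were computed with the window rule of the study but without spike-ins, and are a description with no test. For the 6 tested members all 12 fits passed the R² minimum of 0.9. In shControl it came to 1.15 h for DUSP1, 1.22 h for JUN, 1.41 h for MYC, 1.44 h for IER5, 2.81 h for JUND and 2.89 h for IER2. In shZNF598 it was 1.15 h for DUSP1, 1.13 h for JUN, 1.58 h for MYC, 1.39 h for IER5, 2.43 h for JUND and 3.35 h for IER2. Over 14990 transcripts with a reliable half-life the median was 4.84 h for shControl and 5.05 h for shZNF598, all relative to the bulk. The best window ended at 4 h in 11 of these fits and at 6 h for JUND in shZNF598. With the window fixed at 0-4 h, JUND in shZNF598 came to 2.53 h with an R² of 0.873, below the minimum. Fits of single replicates gave 3.43 and 2.56 h for IER2 in shControl, and 4.07 and 2.86 h in shZNF598. For JUN they gave 1.26 and 1.18 h in shControl, and 1.13 and 1.12 h in shZNF598.

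After 4 h the decline relative to the bulk went on, to 6 h, for JUND alone of the tested members. From 4 to 10 h, 5 of the 6 tested members rose relative to the bulk in each arm (all but JUND), where 30.9% of all transcripts were called higher in shControl and 30.5% in shZNF598. MYC went from 0.669 and 0.56 CPM at 4 h to 2.97 and 2.78 CPM at 10 h in shControl, and from 0.852 and 0.665 CPM to 3.43 and 3.91 CPM in shZNF598. IER2 went from 0.669 and 0.64 CPM to 2.38 and 2.3 CPM in shControl, so that the mean of this transcript at 10 h was 1.34-fold that at 0 h. The other tested IER2 transcript had a mean of 1.58 CPM at 0 h, 0.562 CPM at 4 h and 1.67 CPM at 10 h in shControl. JUN went from 9.37 and 9.15 CPM to 26.2 and 22.7 CPM in shControl and from 7.31 and 6.76 CPM to 23.7 and 33.7 CPM in shZNF598. The libraries of 4 h and 10 h did not overlap for any of these genes, but the share of all transcripts without such overlap was not counted. JUN at 10 h was still at 0.265 of its 0 h level in shControl and 0.335 in shZNF598.

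The rise in shControl was 2.22 ± 0.19 log2 units for MYC (SE; edgeR adjusted p = 4.64e-10), 1.83 for IER2, 1.73 for DUSP1, 1.44 for IER5 and 1.4 for JUN. In shZNF598 it was 2.25 for MYC, 2.02 for JUN, 1.88 for DUSP1, 1.71 for IER5 and 1.64 for IER2. JUND fell by 0.73 ± 0.19 in shControl (adjusted p = 0.0014), where 34% of transcripts were called lower. In shZNF598 the change of JUND was −0.03 ± 0.18 (adjusted p = 0.901), and 0 members were lower, where 31% of transcripts were. JUNB, from the fit without a filter, rose by 1.41 in shControl and by 2.06 in shZNF598. The members' median change was 1.58 and 1.79, against −0.06 and −0.02 over all transcripts.

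The size of this rise depended on the scaling. The 10 long-lived mRNAs used as a reference (among them GAPDH, ACTB and EEF1A1) themselves rose from 4 to 10 h, with a median of 1.47 in shControl and 1.27 in shZNF598. When libraries were scaled to their sum, the median of all transcripts shifted to −1.34 and −1.26. The rise of MYC was then 0.94 ± 0.18 in shControl (edgeR adjusted p = 0.000128) and that of IER2 0.55 ± 0.19 (0.0101), whereas DUSP1 (0.45 ± 0.23, 0.0764), IER5 (0.16 ± 0.18, 0.404) and JUN (0.12 ± 0.13, 0.384) were no longer called. In shZNF598 the same 5 members remained called on that scale, from 0.39 for IER2 (adjusted p = 0.0472) to 1.01 for MYC. Of 79513 transcripts, 2022 were called higher and 68627 lower on that scale in shControl, and 1800 and 69176 in shZNF598. JUND fell in both arms on that scale, by 2.01 and 1.27. With library size alone the median of all transcripts shifted to −0.63 and −0.54, and the 5 members rose by 0.83 to 1.65 in shControl and by 1.12 to 1.74 in shZNF598. The early slopes stayed called under each scaling, at −0.452 or lower in shControl and −0.398 or lower in shZNF598 on the reference scale. Early slopes below 0 were called on the reference scale for 25713 of 79513 transcripts in shControl and 23554 in shZNF598.

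**Figure D3:**
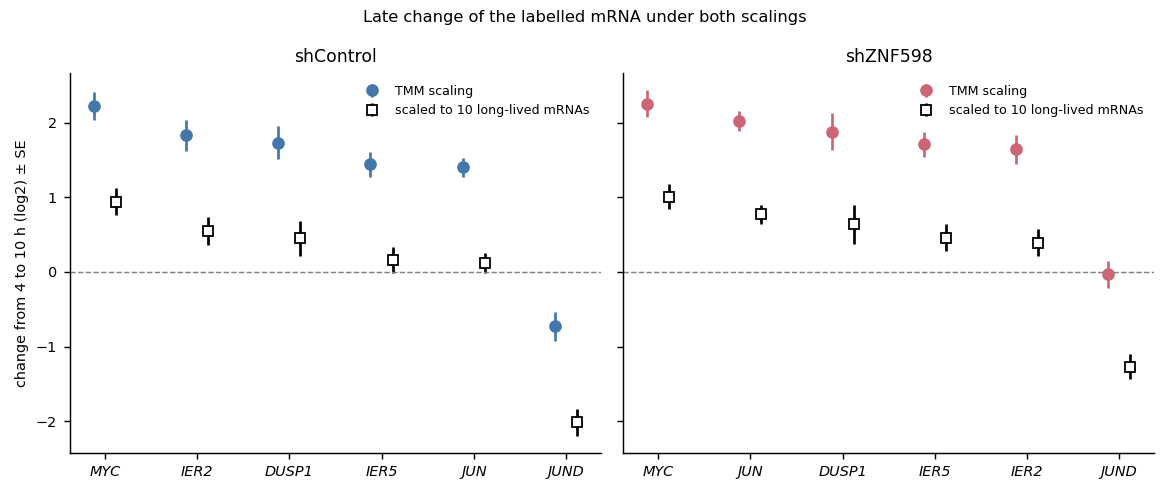
Change of the log2 level from 4 to 10 h for the 6 tested members (bars are SE) with TMM scaling (filled circles) and with scaling to 10 long-lived mRNAs (open squares), in shControl (left) and shZNF598 (right). The 5 rising members lie between 1.4 and 2.25 with TMM and between 0.12 and 1.01 on the reference scale, and JUND lies at or below the zero line.

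Because of this bend, a straight line over 0-10 h described few members. With the bend counted as spread, JUND was the 1 tested member with a slope called below 0, with −0.261 ± 0.052 (shControl) and −0.2 ± 0.049 (shZNF598) log2 per hour (edgeR adjusted p = 0.000124 and 0.00114), where 40.8% and 38.5% of transcripts were called lower. With the trend taken through the group means, so that the bend does not count as spread, JUN (−0.163 and −0.127), DUSP1 (−0.131 and −0.095), IER5 (−0.122 and −0.096) and JUND (−0.261 and −0.198) fell in both arms and IER2 rose (0.066 and 0.048), while MYC was not called. That fit called 81.5% of all transcripts in shControl (36295 lower and 28505 higher) and 78.7% in shZNF598 (34787 lower and 27829 higher). At 24 h, with 1 library per shRNA and no replicate check, IER5 was at 14 CPM in shControl and 16.7 CPM in shZNF598, MYC at 4.74 and 5.66 CPM, IER2 at 3.7 and 3.47 CPM, and JUN at 31.6 and 33.9 CPM.

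No difference in decay between the arms was detected for a tested member. Over 0-4 h the slope difference (shZNF598 minus shControl) was called for 0 of 6 members and 0% of transcripts (0 in edgeR, with 1091 at an unadjusted p below 0.05, none of them a member; DESeq2 called 15 transcripts and 0 members). The difference was −0.063 ± 0.054 log2 per hour for JUN (SE; approximate 95% interval −0.17 to 0.043), −0.019 ± 0.115 for DUSP1 (−0.245 to 0.207), and 0.087 ± 0.103 for MYC (−0.115 to 0.289). For IER5 it was −0.029 ± 0.052 (−0.131 to 0.072), for IER2 0.058 ± 0.069 (−0.078 to 0.194) and for JUND −0.031 ± 0.09 (−0.208 to 0.146). These intervals are narrow beside the slopes of JUN and IER5 and wide beside those of IER2 and JUND. Over 0-10 h, 0 of 6 members were called, where 0.116% of transcripts were (edgeR; 4396 transcripts and 0 members at an unadjusted p below 0.05; DESeq2 called 579 transcripts and 0 members and gave no adjusted p for 5 members). This fit counts the bend as spread and so has little power to call a difference. The trend through the group means also called 0 of the 6 members, where 0.737% of transcripts were called. JUN (0.036 ± 0.016, edgeR adjusted p = 0.383) and JUND (0.063 ± 0.023, adjusted p = 0.242) were below an unadjusted p of 0.05, as were 9439 of all transcripts.

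Among the 6 tested members the late change differed most for JUN and JUND, without passing the adjusted threshold. The change from 4 to 10 h was 0.62 ± 0.18 higher in shZNF598 for JUN (approximate 95% interval 0.26 to 0.98, edgeR adjusted p = 0.39) and 0.7 ± 0.26 higher for JUND (0.2 to 1.21, adjusted p = 0.538). Thus 0 of 6 members were called, where 0.0868% of transcripts were, with 5834 transcripts and 2 members at an unadjusted p below 0.05, and DESeq2 called 220 transcripts and 0 members and gave no adjusted p for 4 members. In the fit without a filter the difference was 1.07 ± 0.89 for FOS, on at most 10 counts in a library of these times, and 0.65 ± 0.44 for JUNB (edgeR adjusted p = 1 for both). The JUN difference passed only without the first shZNF598 library of 10 h (0.86 at an adjusted p of 0.0408). JUND had 0.572 and 0.598 CPM at 6 h in shControl and 1.01 and 0.996 CPM in shZNF598, and 1.01 and 1.07 CPM at 10 h against 1.41 and 1.86 CPM. These libraries did not overlap at either time, but the share of all transcripts without such overlap was not counted.

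The level itself differed for DUSP1. At 0 h shControl held 9.9 ± 1.49 CPM and shZNF598 5.32 ± 0.0528 CPM (SD, n = 2), which is 1.86-fold lower (log2 difference −0.9 ± 0.17 SE, edgeR adjusted p = 0.0104). Fewer cells with labelled DUSP1 RNA and less of that RNA per cell cannot be told apart in such bulk libraries. DUSP1 was the 1 member called lower at 0 h, where 0.335% of transcripts were, and 0 members were higher, where 0.0729% were. Without the first or the second shControl library of 0 h the difference was −1.05 or −0.73 (edgeR adjusted p = 0.00225 or 0.0324). Without the first or the second shZNF598 library of 0 h it was −0.91 or −0.89 and no longer called (adjusted p = 0.198 or 0.217). Averaged over 0-10 h, DUSP1 was 1.75-fold lower (−0.81 ± 0.1, adjusted p = 1.77e-06), a call that held without each library in turn. All its shZNF598 libraries were below all its shControl libraries at each of the 5 chase times, a pattern shown by 2.44% of transcripts. At 24 h the shControl library held 3.01 CPM and the shZNF598 library 3.36 CPM.

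**Figure D4:**
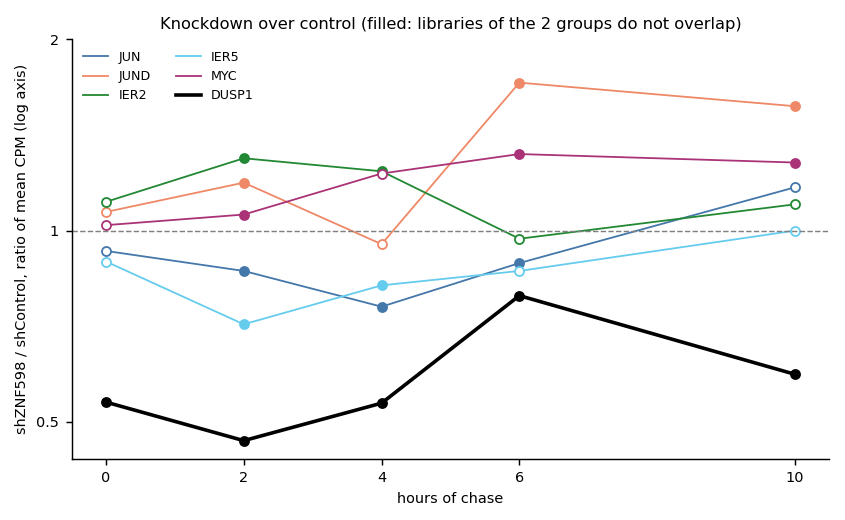
Ratio of the mean level in shZNF598 to that in shControl (log axis) against hours of chase for the 6 tested members, with filled points where the libraries of the arms do not overlap. The share of all transcripts without overlap at a single time was not counted. DUSP1 lies between 0.467 and 0.79 at every time, JUND rises to 1.71 at 6 h, and JUN and IER5 lie below 1 up to 6 h.

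Averaged over 0-10 h, 2 of the 6 members were lower and 2 higher in shZNF598, where 10.1% and 12.3% of transcripts were called. IER5 was lower by 0.23 ± 0.07 on the log2 scale (edgeR adjusted p = 0.0226), a call kept in 16 of 20 fits that left out 1 library. JUND was higher by 0.34 ± 0.08 (adjusted p = 0.00336), kept in all 20, and MYC by 0.24 ± 0.08 (adjusted p = 0.0353), kept in 10 of 20. On the reference scale MYC (0.12, adjusted p = 0.291) and JUND (0.22, 0.051) were not called and JUN was called lower (−0.25, 0.00395). That scale called 18485 of 79513 transcripts lower and 1511 higher. MYC was also not called by DESeq2 (adjusted p = 0.0552) or by edgeR without a filter (adjusted p = 0.0524). FOS, from the fit without a filter, was at 0.376 and 0.478 CPM at 0 h in shControl and 0.257 and 0.258 CPM in shZNF598, and its averaged difference was −0.72 ± 0.27 (adjusted p = 0.0667). JUNB was at 2.29 ± 0.54 CPM and 1.43 ± 0.141 CPM at 0 h (difference −0.66 ± 0.21, adjusted p = 0.166).

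Isoforms of a gene share reads and are not separate evidence. The other 4 tested MYC transcripts had slopes over 0-4 h of −0.722 to −0.758 in shControl, and the other IER2 transcript (2 exons) had −0.395. The averaged level of these MYC transcripts was higher by 0.22 to 0.23 in shZNF598 (edgeR adjusted p = 0.0471, 0.0502, 0.0659 and 0.0674). Exons of other genes on the opposite strand overlap 32.2% of the IER2 transcript (a long noncoding RNA, with 22.6% for another one), 14.2% of JUNB (HOOK2) and 5.21% of MYC (CASC11). The library kit keeps the strand, but the strand setting of the counting is not given in the sources used here, so reads of these partners cannot be told apart from those of IER2, JUNB and MYC.

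Other immediate early and primary response genes were measured beside the members. Of a list of 40, 16 reached the filter, and all 16 had a slope over 0-4 h called below 0 in both arms, with a median of −0.603 in shControl and −0.61 in shZNF598. Among all transcripts, 21.3% and 20.5% had such a call. From 4 to 10 h, 10 of the 16 rose and 2 fell in each arm, with a median of 0.69 and 0.8. Among all transcripts, 30.9% and 30.5% were called higher and 34% and 31% lower (shControl and shZNF598). Over 0-10 h, 13 fell in shControl, where 40.8% of transcripts were called lower. SGK1, a kinase induced by glucocorticoids and serum, had the lowest slope (−0.35 ± 0.08, edgeR adjusted p = 0.000533), followed by TRIB1, a pseudokinase (−0.24), and CSRNP1 (−0.205). The highest called slopes were those of MAFG (−0.076), MCL1, an inhibitor of apoptosis (−0.124), and SRF, the factor that switches on FOS (−0.151). The early slopes of MAFG (−0.219) and SRF (−0.188) were also among the smallest, against −0.994 for RHOB and −0.892 for BTG2.

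In the MYC network, the partners and antagonists of MYC, 7 of 12 tested genes had an early slope called below 0 in shControl, with a median of −0.151 over the 12. The share over all transcripts was 21.3%. MXD1, a MAX partner that opposes MYC, was lost fastest over 0-10 h (−0.242 ± 0.047, edgeR adjusted p = 0.000109), followed by MLX (−0.229) and MAX (−0.194). MYCBP (0.072) and MYCBP2 (0.055) rose. MAX had an early slope of −0.183 in shControl, against −0.759 for MYC. Of 19 kinases and factors that act upstream of immediate early genes, 8 had an early slope called below 0 in each arm (median −0.075 in shControl), and 12 fell and 2 rose from 4 to 10 h in each arm. Over all transcripts the early share was 21.3% in shControl and 20.5% in shZNF598. From 4 to 10 h, 34% and 31% of transcripts were called lower and 30.9% and 30.5% higher. CREB1 (−0.247), MAPK14, which encodes p38α (−0.217), and MRTFB (−0.181) had the lowest slopes over 0-10 h, and MAP2K2 (0.123), MAPK3, which encodes ERK1 (0.095), and MAPK9 (0.044) the highest.

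Of 9 tested genes for AU-rich element binding and related proteins, 2 had an early slope called below 0 in each arm. This is near the share over all transcripts, 21.3% in shControl and 20.5% in shZNF598. ZFP36L1, which promotes decay of AU-rich mRNAs, had the lowest slope over 0-10 h (−0.171 ± 0.062, edgeR adjusted p = 0.0167) and an early slope of −0.675. TIA1 (−0.124) and PUM2 (−0.119) followed, and KHSRP rose (0.059). The 10 long-lived mRNAs all rose over 0-10 h in both arms, where 33.5% of transcripts were called higher in shControl and 32.7% in shZNF598. In shControl these slopes ran from 0.076 for LDHA, 0.084 for TUBA1B and 0.093 for ACTB to 0.224 for PPIA, 0.255 for RPLP0 and 0.261 for B2M, which encodes the light chain of MHC class I. In the slope difference over 0-4 h, 0 genes of these 5 lists were called, as for all transcripts, and 0 genes were called in the slope difference over 0-10 h, in the difference of the late change or in the level at 0 h (edgeR). The level averaged over 0-10 h was called lower for 3 and higher for 3 of the 16 other immediate early genes. Lower were BTG2 (−0.56), RHOB (−0.39) and MAFG (−0.25), and higher were ATF3 (0.26), SRF (0.24) and MCL1 (0.15). It was lower for 1 and higher for 3 of 12 in the MYC network, 0 and 2 of 19 upstream, 1 and 2 of 9 AU-rich binders, and 0 and 4 of 10 long-lived. Over all transcripts 10.1% were called lower and 12.3% higher.

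**Figure D5:**
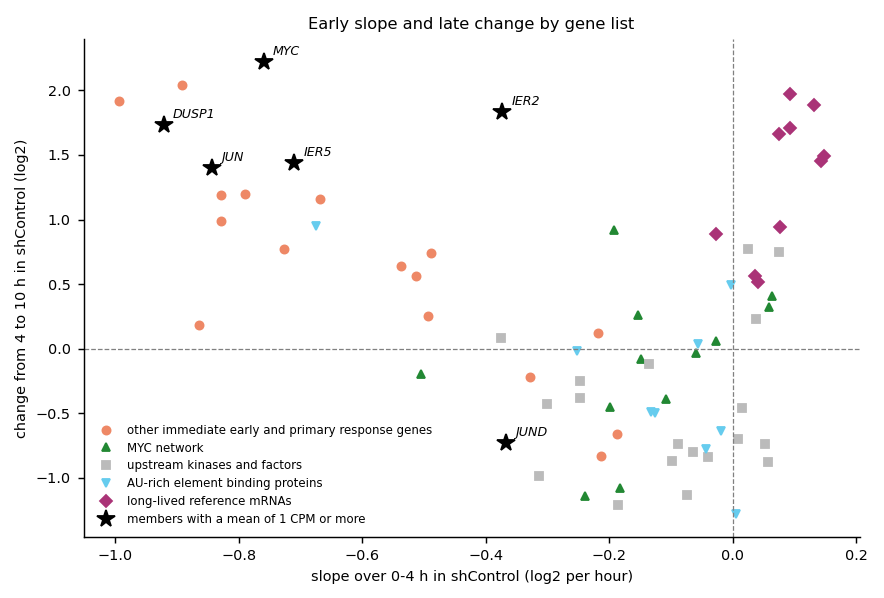
Slope over 0-4 h (log2 per hour, horizontal axis) against the change from 4 to 10 h (log2, vertical axis) in shControl for the 6 tested members (stars) and the genes of the 5 lists. Members other than JUND and most other immediate early genes lie at the upper left, with a steep early slope and a later rise, and the 10 long-lived mRNAs lie at the upper right.

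The genes whose time course was most like that of the tested members were found from the root mean square distance between centred log2 CPM profiles over the 10 group means of 0-10 h, among 10725 genes. They were ENC1 (distance 0.0948), HOXB3 (0.113), BCL11A (0.115), ZNF691 (0.118) and ZNF134 (0.135). Relative to 0 h, ENC1 in shControl was at −2.51 log2 units at 4 h and −1.26 at 10 h, and the members were at −1.29 (IER2) to −3.37 (DUSP1) at 4 h. IER5 was the member nearest to the members' mean profile (0.167), and JUND the farthest (0.76).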

How the data were processed

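Per the labels and the study's methods, the authors trimmed reads with fastp, removed noncoding RNA, aligned the rest with STAR 2.7.0a to hg38 with GENCODE 32 (1 mismatch, 1 locus per read) and used featureCounts to count reads over each transcript. The deposited files, 1 per library, hold raw counts of 227264 transcripts. A second deposited column was read as a value proportional to transcript length and was not tested. Base calling used CASAVA 1.8 per the submitters' notes. The study scaled decay to labelled spike-ins, which were not used here. Identifiers were named with GENCODE 44 (92.2% matched with the version, 98.4% without).

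Counts were tested with edgeR 4.0.16 (quasi-likelihood, TMM) in R 4.3.3 over the 79513 transcripts that averaged 1 CPM or more in the 20 libraries of 0-10 h, with Benjamini-Hochberg adjustment over all of them and a threshold of 0.05. A model with 1 mean per group gave levels and the change from 4 to 10 h, and a model with shRNA, hours and their product gave slopes. Half-lives used DESeq2 1.42.0. Members under the filter were taken from a fit of all transcripts with a count. Approximate 95% intervals are the estimate with normal limits of its SE. Both models were tested on simulated data. Alternatives covered scaling, filter, test, rows, block, windows and left-out libraries. The trend through group means, and the unscaled fit without a filter, were chosen after seeing the data.

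The members and gene lists were chosen with earlier results of these data known. Genes named were the members, ZNF598, up to 3 genes with the lowest and 3 with the highest called slope over 0-10 h in shControl per list, and the 5 genes with the nearest profile. RHOB, BTG2 and ATF3 were named after their values were seen.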

Additional observations from a re-analysis of the deposited data

How the results depend on the processing

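The 6 early slopes below 0 in each arm held under the alternatives run, except that 4 in each arm were called without replicate 1 of every group (without a filter, 9 of the 10 members were called). Without a filter, 23.6% of all transcripts had a called early slope in shControl and 23.4% in shZNF598, in either direction. A slope difference was called for 0 members under each alternative that gave a value. Of the values compared over all alternatives, 1680 kept their direction and side of the threshold, 29 lost a call, 43 gained one and 85 turned sign. The number of members with a called slope over 0-10 h (1 in each arm) depended most on the setting. In shControl it was 2 of all 10 members without a filter, 7 of all 10 without a filter or TMM, and of the 6 tested members 4 with library size alone, 6 with reference scaling, 5 with the trend of group means, 6 over 0-6 h and 2 over 0-24 h. The share of all transcripts called in either direction in shControl was 42.4% without a filter and 50.7% without a filter or TMM. It was 78.5% with library size alone, 90% with reference scaling, 81.5% with the trend, 67% over 0-6 h and 28.9% over 0-24 h. In shZNF598 the number of members was 5 of all 10 without a filter or TMM, and of the 6 tested members 4 with library size alone, 6 with reference scaling, 5 with the trend, 6 over 0-6 h and 0 over 0-24 h. The share of all transcripts was 46.7% without a filter or TMM, 75.8% with library size alone and 90.8% with reference scaling. With the trend it was 78.7%, over 0-6 h 64.6% and over 0-24 h 26.2%. With reference scaling the members called from 4 to 10 h in shControl went from 6 to 3, where 68627 of 79513 transcripts were called lower and 2022 higher. With a fixed window of 0-10 h, 0 of 12 half-lives passed the R² minimum. The cause was not tested, except that the trend does not count the bend as spread.

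Leaving out libraries moved the members called to 0 to 1 for the level at 0 h, 2 to 5 for the averaged level (2 without the first shZNF598 library of 0 h or the second shControl library of 2 h), 0 to 1 for the difference in late change, 1 to 3 for the slope over 0-10 h in shControl (3 without its first library of 10 h) and 0 to 2 in shZNF598 (2 without its second library of 10 h, 0 without replicate 1 of every group). The averaged level called 3 members without a filter, with DESeq2 and with reference scaling. Without replicate 1 or 2 of every group the model with 1 mean per group left no residual degrees of freedom, so levels and late changes could not be fitted.

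Values near 0 turned sign. With reference scaling the level at 0 h was −0.07 for JUND, −0.02 for IER2 and −0.14 for MYC, and with library size alone −0.01 for MYC. IER2's slope over 0-10 h was −0.005 and −0.011 (shControl and shZNF598) with library size alone, −0.113 and −0.12 with reference scaling and −0.168 and −0.189 over 0-6 h. Over 0-24 h the slope was 0.006 and 0.028 for IER5 and 0.029 and 0.043 for MYC. MYC's slope in shZNF598 was also 0.007 with DESeq2, 0.005 with RLE scaling, 0.022 with the trend and 0.002 with 1 row per gene. With DESeq2 and with RLE scaling the change from 4 to 10 h was 0.03 for JUND in shZNF598 and the difference in it −0.01 for MYC. Over 0-6 h the slope difference was −0.013 for JUN and −0.001 for IER5. Without a filter or TMM the change from 4 to 10 h in shControl was −0.16 for FOS and −0.46 for EGR1. With the longest transcript FOSB had a difference in late change of 1.15 and a slope difference of 0.089.

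Over the fits without libraries, values that turned sign ranged as follows. The level at 0 h was −0.1 to 0.27 for JUND, −0.01 to 0.32 for IER2 and −0.01 to 0.08 for MYC. The change from 4 to 10 h in shZNF598 was −0.22 to 0.18 for JUND. The difference in the change from 4 to 10 h was −0.46 to 0.06 for IER2, −0.12 to 0.23 for MYC and −0.12 to 0.5 for DUSP1. The slope over 0-10 h in shControl was −0.099 to 0.015 for MYC. The slope over 0-10 h in shZNF598 was −0.012 to 0.094 for IER2 and −0.057 to 0.053 for MYC. The slope difference over 0-10 h was −0.042 to 0.094 for JUN, −0.073 to 0.032 for IER2, −0.048 to 0.072 for IER5, −0.02 to 0.094 for MYC and −0.053 to 0.112 for DUSP1. The slope difference over 0-4 h was −0.112 to 0.051 for JUND, −0.001 to 0.101 for IER2, −0.051 to 0.006 for IER5, −0.013 to 0.163 for MYC and −0.148 to 0.125 for DUSP1.

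The replicate block changed no call (6 early slopes in each arm, 1 slope over 0-10 h in each arm, 4 averaged levels, 1 level at 0 h). The labels give libraries of the same number only that number in common. Their deviations correlated by −0.304 to 0.426 between groups (median 0.0232, above 0.1 in 12 of 45 pairs of groups). A source shared by libraries of some groups was not tested. DESeq2 called 16738 transcripts for the averaged level, 49289 and 46836 for the change from 4 to 10 h in shControl and shZNF598, 220 for its difference and 579 for the slope difference over 0-10 h. Depth limited FOS, FOSB and EGR1, which rested on at most 36 counts in a library of 0-10 h.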
